A study of Homo sapiens with 12 samples.

Results

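Long intergenic noncoding RNAs are transcripts that resemble messenger RNAs in being made by RNA polymerase II and in often being spliced. As a rule they lie between protein-coding genes, though some genes so named overlap 1, and they have no long reading frame. Those without another name carry a symbol of LINC and a number. The genes described here are the LINC genes that were measured at a clear level in Ls174T colorectal carcinoma cells: 46 of the 840 LINC genes on the array, which is 5.48%. They were chosen by level. Each gene was taken at its probe set with 1 symbol and the highest mean log2 signal over all 12 arrays, and was kept where that mean was 5 or more, a signal of 32. Of all 19775 genes on the array 49.6% had such a mean. Of the other LINC genes 120 were measured above the filter on dim genes, a mean of 3.35, and 674 lay below it. All 46 passed that filter by construction, and 34 had a mean of 5 or more in every group. Just above the minimum stood LINC02901 and LINC02846 (5.09 each) and LINC00513 (5.02), and just below it LINC01016 (4.99), LINC01023 (4.96) and LINC01547 (4.90).

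Ls174T cells are a human colorectal cancer line in which Wnt signalling is switched on without an outside signal. In this pathway β-catenin, encoded by CTNNB1, accumulates, enters the nucleus and binds TCF proteins such as Tcf4, which then activate their target genes. A long noncoding RNA can act where it is made, on neighbouring genes, or elsewhere in the cell by binding proteins or other RNAs, and for most LINC genes no function is established. Many are expressed at a low level and in few tissues.

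Expression was measured on Affymetrix U133 Plus 2.0 arrays in 4 groups of 3 arrays. Derivative Ls174T-pTER-β-catenin, which carries a doxycycline-inducible short hairpin RNA (shRNA) against β-catenin, was given doxycycline for 72 h or left uninduced. Derivative Ls174T-L8, which carries a doxycycline-inducible dominant-negative Tcf4 transgene (dnTcf4), was given doxycycline for 24 h or left uninduced. All groups share the parent line, the RPMI medium and 5% fetal calf serum. Construct and time differ together between the lines, uninduced cells received no doxycycline, and the labels do not say whether a line is 1 clone or whether the arrays of a group are separate cultures. The p-values therefore measure the spread between arrays, which may be technical, and 3 arrays per group limit the precision.

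The target of the shRNA was lower in its own line. CTNNB1 averaged 156 ± 21.4 with the shRNA induced and 3784 ± 195 uninduced (SD, n = 3 each), a log2 change of −4.61, while with dnTcf4 its change was 0.17 (adjusted p = 0.216). The Wnt target AXIN2 had log2 changes of −1.60 with the shRNA and −2.24 with dnTcf4. TCF7L2, the gene of Tcf4, rose by 0.74 with the shRNA and 0.72 with dnTcf4 (difference 0.02, adjusted p = 0.95). Of 12 markers of colorectal epithelium all had a mean of 5 or more. Their summed signal was 38112 to 43986 with the shRNA induced against 16978 to 19760 uninduced, and 36474 to 40611 with dnTcf4 induced against 25217 to 28315 uninduced. Of 8 leukocyte markers 6 were found and 1 passed the filter, with PTPRC, CD3E and CD14 below it. The summed leukocyte signal was 67.9 to 97.5 with the shRNA induced against 47 to 56.5 uninduced, and 18.4 to 42.3 with dnTcf4 induced against 29.3 to 43.6 uninduced. Fibroblast markers, of which COL1A1 alone had a mean of 5 or more, summed to 185.6 to 205.4 with dnTcf4 induced against 105.6 to 144.4 uninduced. The part of these shifts in the results on LINC genes was not tested. In bulk RNA, fewer cells with a transcript and less transcript per cell cannot be told apart.

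The 46 genes spanned means of 9.24 to 5.02 on the log2 scale. All 45 with an entry in RefSeq are annotated there as long noncoding RNAs, on 20 chromosomes. LINC01296 had no entry. Signals of different probe sets are not comparable as amounts of RNA, so the order of genes describes brightness. The brightest was LINC01088, with 276.3, 313.6 and 363.4 in induced and 259.0, 240.4 and 344.0 in uninduced shRNA cells. In the dnTcf4 line it had 1082.3, 1306.9 and 1075.2 induced and 1293.5, 1456.8 and 1245.2 uninduced. Every array of the dnTcf4 line thus lay above every array of the shRNA line, and induction passed the test in neither line (log2 changes of 0.19, adjusted p = 0.329, and −0.21, adjusted p = 0.264). LINC01003, LINC00621, LINC03040 and LINC00674 followed, with means of 8.54, 7.87, 7.83 and 7.77.

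LINC00621, read by a probe set that may also match related sequences, had 195.9, 210.5 and 166.3 in induced and 219.7, 195.4 and 273.5 in uninduced shRNA cells. In the dnTcf4 line it had 270.5, 241.7 and 253.2 induced and 263.7, 288.1 and 273.8 uninduced. LINC00674 had 182.9, 215.7 and 151.8 in induced and 206.5, 229.4 and 198.4 in uninduced shRNA cells, and 252.5, 325.4 and 241.6 in induced and 181.0, 249.6 and 222.8 in uninduced dnTcf4 cells. Both genes had overlapping groups in each induction and passed none of the 4 comparisons. Of the 46 genes 13 were read by probe sets that may also match related sequences. LINC01003, LINC00621, LINC00520, LINC00623 and LINC02846 are among these and have no other probe set. No value of any of the 46 genes lay under a signal of 1. The median standard deviation within a group was 0.216 on the log2 scale. Induced shRNA cells held the highest group mean for 23 genes, uninduced shRNA cells for 8, induced dnTcf4 cells for 6 and uninduced dnTcf4 cells for 9.

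**Figure D1:**
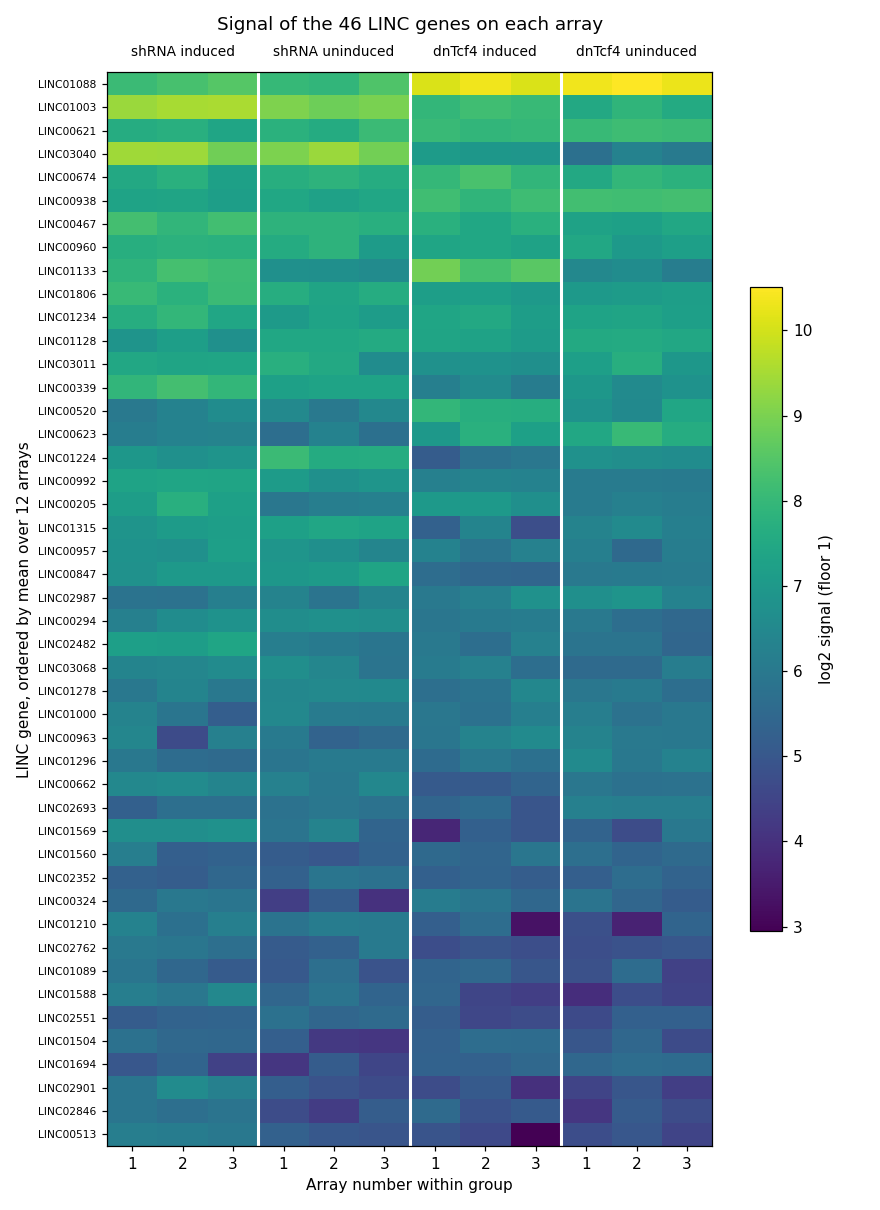
Log2 signal of the 46 LINC genes (rows, by mean over the arrays) on the 12 arrays (columns, by group), with colour for the signal floored at 1. LINC03040 is brighter on the shRNA arrays, LINC01088 on the dnTcf4 arrays, and LINC01133 on the induced arrays of both lines.

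The first question was which LINC genes responded when β-catenin was lost. After 72 h of the shRNA 13 of the 46 were higher and 2 lower at an adjusted p under 0.05, by limma's moderated test with Benjamini-Hochberg adjustment over all 12386 genes tested. LINC01133, LINC02901, LINC00324, LINC00205 and LINC02482 each more than doubled, and LINC01224 fell the most. The share called was 32.6%, against 34.0% of all genes tested and 40.9% of genes with a mean of 5 or more, a share near the background. By direction, 13 of 46 were called higher, against 16.6% of all genes tested and 19.6% of genes with a mean of 5 or more. Called lower were 2, against 17.4% and 21.3%. The median log2 change was 0.23 over the LINC genes, 0.02 over all genes tested and 0.00 over genes with a mean of 5 or more. With arrays centred on their median, 9 were called higher and 2 lower. Without replicate 2 of the uninduced shRNA arrays 8 were called higher.

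LINC01133 is known to bind the splicing factor SRSF6 and has been reported to restrain invasion of colorectal cancer cells. Its signal was 232.1, 307.6 and 278.4 with the shRNA induced against 107.9, 103.8 and 97.4 uninduced, and 474.4, 312.0 and 380.9 with dnTcf4 induced against 89.8, 99.4 and 71.2 uninduced. All 6 induced arrays stood above all 6 uninduced ones. The log2 change was 1.40 ± 0.16 (SE, adjusted p = 5.63e-06) with the shRNA and 2.16 ± 0.16 (adjusted p = 5.71e-08) with dnTcf4.

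LINC00205, which has been studied in liver cancer, had 143.9, 212.1 and 150.9 with the shRNA induced against 61.3, 73.2 and 75.3 uninduced. With dnTcf4 it had 131.7, 129.6 and 103.8 induced against 68.0, 75.8 and 70.9 uninduced. The groups did not overlap in either line, and the uninduced lines differed by 0.04 (adjusted p = 0.884). The rise was 1.26 ± 0.17 (adjusted p = 2.06e-05) with the shRNA and 0.76 ± 0.17 (adjusted p = 0.00195) with dnTcf4. The gene has 4 other probe sets above the filter. With the shRNA 1 of them was called (0.99, adjusted p = 0.00415), and the others had estimates of −0.49 to 0.73 that did not pass.

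LINC01224 moved down. It had 124.4, 106.4 and 116.9 with the shRNA induced against 276.9, 195.7 and 196.8 uninduced. In dnTcf4 cells it had 35.3, 56.1 and 61.1 induced against 108.9, 102.7 and 97.9 uninduced. The log2 changes were −0.93 ± 0.19 (adjusted p = 0.00126) and −1.06 ± 0.19 (adjusted p = 0.000406), and their difference of 0.13 did not pass the test (adjusted p = 0.804). Of the 46 genes it was the 1 called lower in both.

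LINC00339, which lies beside CDC42, moved in opposite directions. With the shRNA it had 241.7, 301.7 and 245.8 induced against 152.6, 161.7 and 160.0 uninduced, a rise of 0.73 ± 0.15 (adjusted p = 0.00124). With dnTcf4 it had 74.3, 95.9 and 69.2 induced against 122.8, 93.8 and 111.8 uninduced, a fall by 0.46 (adjusted p = 0.0246). Here 1 induced array lay above 1 uninduced array, and the fall was no longer called without either of replicates 1 and 3 in the induced or in the uninduced dnTcf4 group (adjusted p of 0.0689 to 0.11).

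LINC01003, read by a probe set that may also match related sequences, rose by less. It had 657.2, 729.9 and 744.7 with the shRNA induced against 531.7, 455.9 and 503.2 uninduced, a log2 change of 0.52 ± 0.12 (adjusted p = 0.00233). In dnTcf4 cells it had 249.2, 290.8 and 265.4 induced against 183.4, 239.0 and 191.2 uninduced, a log2 change of 0.40 ± 0.12 (adjusted p = 0.0127). The groups did not overlap in either line. The dnTcf4 call was lost without induced replicate 2 (adjusted p = 0.0537) or uninduced replicates 1 (0.0682) or 3 (0.0527).

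These 5 were the LINC genes called in both inductions. Their promoters, from 250 bases before to 50 after the RefSeq start, are shown because these genes moved in both lines. Capitals mark a CCAAT box, on either strand. They are taken from RefSeq on build GRCh38.p14, written 5′ to 3′ along the strand of the gene, for LINC01133 at chr1:159960974-159961273 (plus), LINC00205 at chr21:45287802-45288101 (plus), LINC01224 at chr19:23416025-23416324 (minus), LINC00339 at chr1:22024941-22025240 (plus) and LINC01003 at chr7:152463874-152464173 (plus).
LINC01133: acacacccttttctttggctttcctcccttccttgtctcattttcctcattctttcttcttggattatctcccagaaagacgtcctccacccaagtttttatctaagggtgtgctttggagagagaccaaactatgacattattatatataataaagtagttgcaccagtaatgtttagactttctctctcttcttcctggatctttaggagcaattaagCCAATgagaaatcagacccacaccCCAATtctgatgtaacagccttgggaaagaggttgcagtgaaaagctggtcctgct
LINC00205: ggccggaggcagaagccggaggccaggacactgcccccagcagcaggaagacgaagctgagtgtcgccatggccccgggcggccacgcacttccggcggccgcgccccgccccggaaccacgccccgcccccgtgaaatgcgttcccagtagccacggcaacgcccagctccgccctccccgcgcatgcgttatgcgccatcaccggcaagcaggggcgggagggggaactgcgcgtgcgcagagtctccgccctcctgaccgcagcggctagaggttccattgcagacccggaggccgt
LINC01224: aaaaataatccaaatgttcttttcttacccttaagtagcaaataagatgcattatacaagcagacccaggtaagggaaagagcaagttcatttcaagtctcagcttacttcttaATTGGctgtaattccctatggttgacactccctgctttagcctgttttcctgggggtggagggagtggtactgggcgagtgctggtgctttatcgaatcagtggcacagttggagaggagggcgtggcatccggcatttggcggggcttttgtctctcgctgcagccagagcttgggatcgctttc
LINC00339: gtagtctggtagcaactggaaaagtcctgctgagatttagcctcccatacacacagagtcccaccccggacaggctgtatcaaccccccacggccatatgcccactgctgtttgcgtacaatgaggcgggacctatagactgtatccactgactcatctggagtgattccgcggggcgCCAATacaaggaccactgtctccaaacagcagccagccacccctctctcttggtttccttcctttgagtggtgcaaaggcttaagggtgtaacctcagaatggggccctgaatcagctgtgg
LINC01003: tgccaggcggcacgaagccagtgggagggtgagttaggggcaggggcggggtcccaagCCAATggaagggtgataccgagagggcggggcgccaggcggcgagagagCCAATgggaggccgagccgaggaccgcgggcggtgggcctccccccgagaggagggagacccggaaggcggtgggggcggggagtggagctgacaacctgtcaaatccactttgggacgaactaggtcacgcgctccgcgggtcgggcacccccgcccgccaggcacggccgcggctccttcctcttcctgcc

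Promoters were found for 39 of the 46 genes. On both strands, the letters CTTTGAT and CTTTGAA, cores of the site that TCF and LEF proteins bind, occurred in 0 of the 39, against 2.62% and 4.43% of 35116 promoters in RefSeq. The CCAAT box, letters CCAAT, stood in 24 of 39 (61.5%, against 34.6% of all promoters), the TATA box, TATAAA, in 6 (15.4%, against 11.5%) and the E-box CACGTG in 4 (10.3%, against 7.26%). The TCF/LEF cores differ in their last letter, and a CCAAT box can overlap CTTTGAT on the opposite strand. LINC01133 holds the CCAAT box at 2 places, LINC01224 on the opposite strand, and LINC00205 none. A match describes letters in this window, and the absence of a match says nothing about the factor. Median GC content was 59.3% in the 39 and 58.7% in all promoters, and the median number of CpG was 10 and 14.

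The other genes with large responses to the shRNA had no call with dnTcf4. LINC02901, also listed as C6orf99, had 59.3, 96.5 and 75.8 with the shRNA induced against 37.2, 29.5 and 25.4 uninduced. It had 26.2, 33.7 and 16.0 with dnTcf4 induced against 22.7, 31.1 and 20.2 uninduced. The log2 change was 1.32 ± 0.31 (adjusted p = 0.00294) with the shRNA and −0.00 (adjusted p = 0.994) with dnTcf4. LINC02901 reached a mean of 5 in induced shRNA cells and in no other group, so it entered the 46 through that group. LINC00324, LINC02846 and LINC01504, described next, likewise had means under 5 in uninduced shRNA cells. The rises of these 4 of the 13 are therefore not independent of how the genes were chosen.

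LINC02482 had 147.6, 143.0 and 166.4 with the shRNA induced against 72.2, 65.7 and 58.7 uninduced, a rise of 1.22 ± 0.18 (adjusted p = 6.1e-05). With dnTcf4 it had 64.7, 51.4 and 76.5 induced against 57.7, 57.8 and 43.6 uninduced, and the groups overlapped (log2 change 0.27, adjusted p = 0.279). LINC00324 had 46.5, 63.1 and 58.5 with the shRNA induced against 20.4, 35.2 and 16.2 uninduced, a rise of 1.29 ± 0.29 (adjusted p = 0.00239). Its 3 induced arrays all lay above the uninduced ones, while with dnTcf4 the arrays overlapped at 69.7, 58.6 and 44.0 induced against 58.2, 43.7 and 35.6 uninduced (log2 change 0.33, adjusted p = 0.426).

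LINC02846 had 59.0, 51.8 and 57.3 with the shRNA induced against 25.8, 19.6 and 35.9 uninduced (log2 change 1.09 ± 0.30, adjusted p = 0.0104). LINC01504 had 54.0, 45.1 and 44.8 induced against 37.8, 18.2 and 17.6 uninduced (1.06 ± 0.30, adjusted p = 0.0121). Both are dim and each rests on single uninduced arrays: LINC02846 was not called without uninduced replicate 2 (change 0.88, adjusted p = 0.0543), nor LINC01504 without uninduced replicate 2 (0.89, adjusted p = 0.0557) or 3 (0.87, adjusted p = 0.0518). Of the rest, LINC01234, LINC00992, LINC01806 and LINC00467 rose by 0.49, 0.45, 0.42 and 0.34. LINC00992, also called ERINA, is estrogen-inducible, and LINC00467 has been reported to encode a small peptide in colon cancer. All 4 calls were lost with arrays centred on their median and without at least 1 array. LINC01128 fell by 0.56 (adjusted p = 0.00311).

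**Figure D2:**
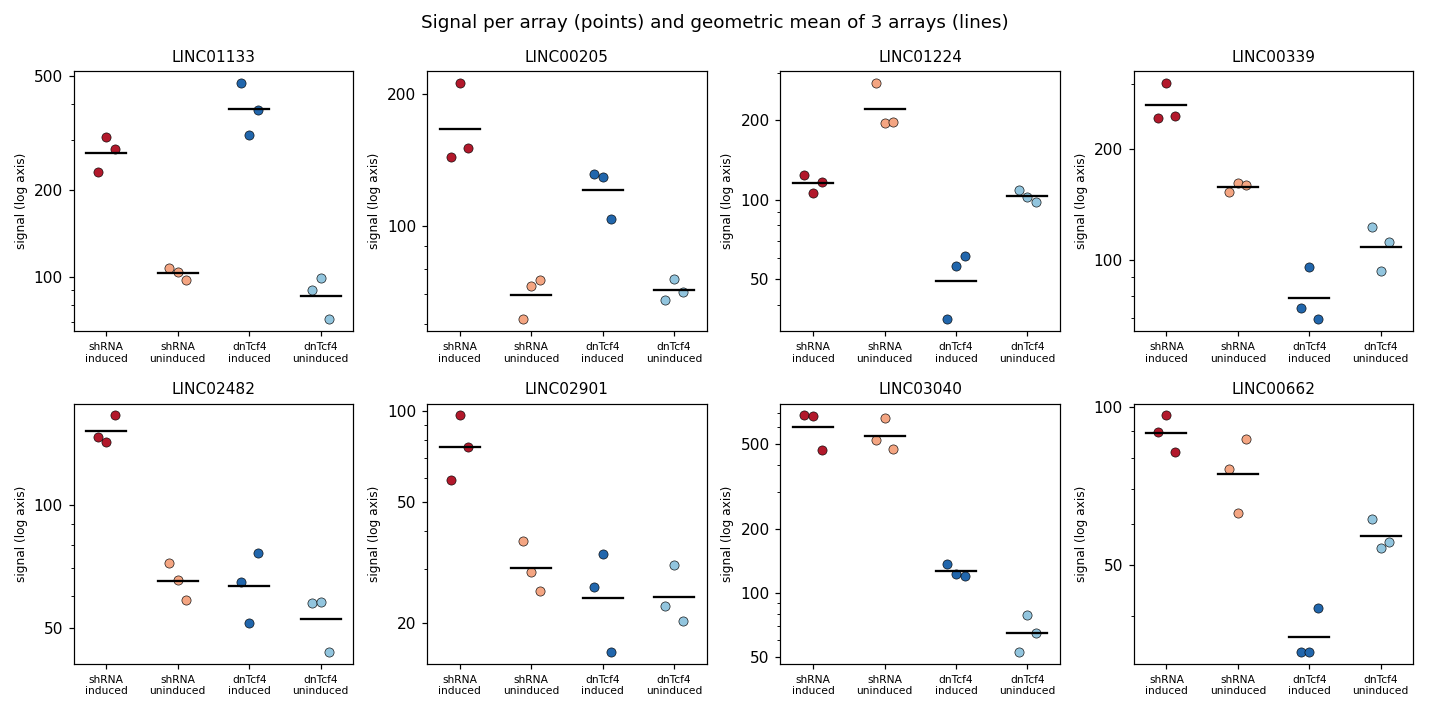
Signal of 8 called LINC genes, those called in the difference of changes with LINC00205 and LINC01224, by group on a log axis, with a point per array and a line at the geometric mean of the 3 arrays. LINC01133 lies between 232.1 and 474.4 on the 6 induced arrays and between 71.2 and 107.9 on the 6 uninduced ones, and LINC02901 is at 59.3 or higher on the induced shRNA arrays and at 37.2 or below elsewhere.

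The second question was which LINC genes responded when dnTcf4 blocked transcription through Tcf4. After 24 h 5 of the 46 were higher and 7 lower, 26.1%, against 36.0% of all genes tested (16.0% higher, 20.0% lower) and 43.4% of genes with a mean of 5 or more (18.9% higher, 24.5% lower). The median log2 change was 0.04 over the LINC genes and −0.05 over all genes tested. LINC01133 and LINC00205 rose, as described, and so did LINC03040 and LINC00520. Next to LINC01224, the largest falls among called genes were in LINC01315, LINC02693 and LINC00662. Without replicate 1 or replicate 3 of the induced dnTcf4 arrays 4 were called lower.

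LINC03040, formerly C6orf223, had 137.6, 122.8 and 120.2 with dnTcf4 induced against 52.8, 79.3 and 65.1 uninduced, a rise of 0.97 ± 0.17 (adjusted p = 0.00037). With the shRNA the arrays overlapped, at 684.1, 678.6 and 468.3 induced against 522.0, 666.9 and 475.3 uninduced (log2 change 0.13, adjusted p = 0.616). Every shRNA array was thus brighter than every dnTcf4 array. LINC00520, known in endothelial cells as LEENE for its part in expression of nitric oxide synthase, had 245.7, 206.0 and 203.2 with dnTcf4 induced against 112.1, 92.6 and 172.9 uninduced (0.84 ± 0.22, adjusted p = 0.00651). In shRNA cells it had 64.4, 79.5 and 98.6 induced against 91.7, 63.5 and 89.6 uninduced (−0.02, adjusted p = 0.967).

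LINC02693, formerly C17orf51, had 42.2, 48.3 and 30.9 with dnTcf4 induced against 75.1, 72.6 and 72.6 uninduced (−0.88 ± 0.20, adjusted p = 0.00257). LINC00662 had 34.2, 34.1 and 41.5 induced against 61.3, 54.0 and 55.3 uninduced (−0.64 ± 0.18, adjusted p = 0.00925). In both the groups stood apart. Another probe set of LINC00662 above the filter changed by 0.006 with dnTcf4 and was not called. LINC01315 had 39.5, 82.2 and 26.9 induced against 80.0, 94.0 and 74.6 uninduced (−0.89 ± 0.28, adjusted p = 0.0179), with 1 induced array inside the uninduced range. Without induced replicate 3 its change was −0.53 (adjusted p = 0.101), and the call was also lost without induced replicate 1 (−0.81, adjusted p = 0.0601) or uninduced replicate 2 (−0.80, adjusted p = 0.0697). The remaining falls were LINC00847 by 0.53 (adjusted p = 0.0112) and LINC01296 by 0.52 (adjusted p = 0.049). The groups of LINC01296 overlapped, at 47.8, 63.0 and 53.3 induced against 94.9, 62.4 and 79.5 uninduced, and its call was lost without any of 9 arrays (adjusted p up to 0.216).

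The 5 LINC genes called in both inductions are 33.3% of those called with the shRNA and 41.7% of those called with dnTcf4. Among all genes with a mean of 5 or more, 2381 were called in both, 59.3% and 55.9% of the same lists. Of the 5, LINC01133, LINC00205 and LINC01003 rose in both and LINC01224 fell in both, while LINC00339 rose with the shRNA and fell with dnTcf4. The changes of the 2 lines had the same sign in 32 of the 46 (69.6%), and in 69.6% of genes with a mean of 5 or more. Called in neither were 24 (52.2%), against 39.9%. The count of 5 became 3 without dnTcf4 uninduced replicate 1 or replicate 3, and 3 with arrays centred on their median.

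**Figure D3:**
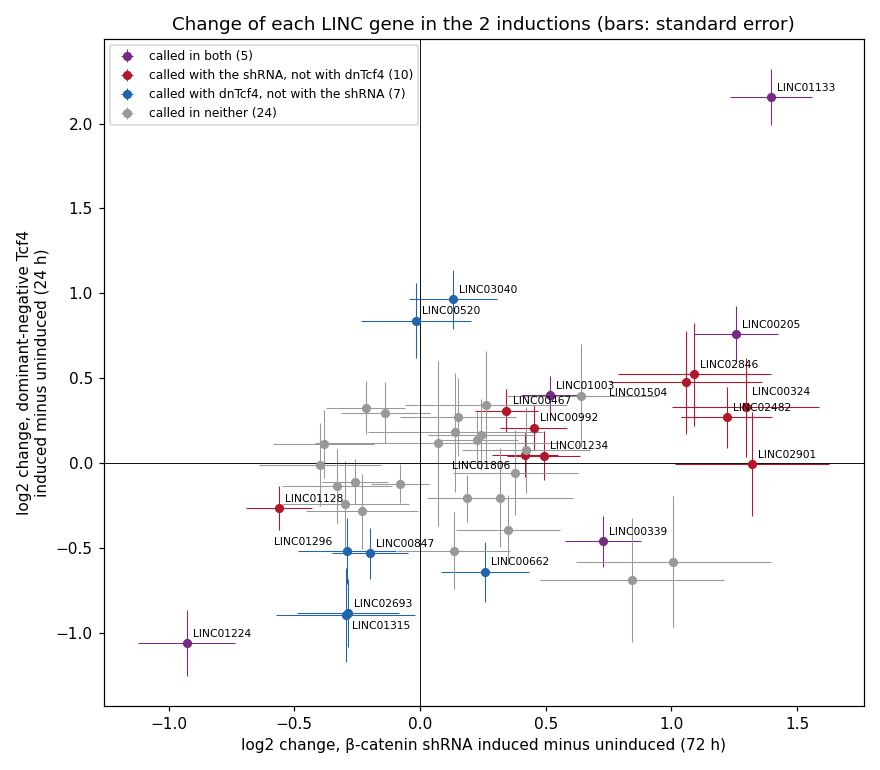
Log2 change of each of the 46 LINC genes on induction of the shRNA (horizontal) and of dnTcf4 (vertical), with bars for the standard error and colours for where a gene was called. LINC01133 stands alone at the top right with 1.40 and 2.16, LINC01224 at the lower left with −0.93 and −1.06, and LINC00339 at the lower right with 0.73 and −0.46.

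A call in 1 line and not in the other does not show that the lines differ, so the difference of the changes was tested in the same model. It was called for 6 of the 46, 4 with the higher change with the shRNA and 2 with the higher change with dnTcf4, against 17.6% of all genes tested (9.03% and 8.61%) and 21.3% of genes with a mean of 5 or more (10.8% and 10.5%). LINC02901 (difference 1.32 ± 0.43, adjusted p = 0.0445), LINC00339 (1.19 ± 0.21, adjusted p = 0.00109), LINC02482 (0.95 ± 0.26, adjusted p = 0.0164) and LINC00662 (0.90 ± 0.25, adjusted p = 0.0196) had the higher signed change with the shRNA. LINC03040 (−0.83 ± 0.25, adjusted p = 0.027) and LINC01133 (−0.76 ± 0.23, adjusted p = 0.0315) had the higher one with dnTcf4. LINC02901 entered the 46 through induced shRNA cells, so its difference is not independent of the choice of genes. In LINC00662 the difference combines a fall with dnTcf4 and, with the shRNA, 89.8, 96.6 and 82.3 induced against 76.4, 62.8 and 87.0 uninduced (log2 change 0.26, adjusted p = 0.291). The calls of LINC00339 and LINC02482 held without each array in turn. That of LINC00662 was lost without shRNA uninduced replicate 2 (adjusted p = 0.0574) or dnTcf4 uninduced replicate 1 (0.0506), that of LINC03040 without any of 4 arrays, that of LINC01133 without any of 6 and that of LINC02901 without any of 8. Larger estimated differences in LINC00513 (1.59, adjusted p = 0.0558) and LINC01569 (1.53, adjusted p = 0.0524) did not pass.

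The lines also differed before induction. Between the uninduced dnTcf4 line and the uninduced shRNA line 20 of the 46 were called, 6 higher and 14 lower in the dnTcf4 line. This is 43.5%, against 37.3% of all genes tested (16.9% higher, 20.5% lower) and 42.8% of genes with a mean of 5 or more (19.9% higher, 22.9% lower). The median log2 difference was −0.27 over the LINC genes and −0.03 over all genes tested. Centring arrays on their median moved the median of all genes tested to 0.09, the LINC calls to 7 higher and 10 lower, and the share of higher calls over all genes to 59.3%, against 45.2% without it. No difference called here changed direction under it.

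LINC03040 showed the largest difference, with 52.8, 79.3 and 65.1 in uninduced dnTcf4 cells against 522.0, 666.9 and 475.3 in uninduced shRNA cells, a log2 difference of −3.08 ± 0.17 (adjusted p = 1.15e-09). LINC01088 went the other way, with the values given above (2.26 ± 0.14, adjusted p = 2.39e-09). LINC00623, on a probe set that may also match related sequences, had 178.9, 260.9 and 199.4 in uninduced dnTcf4 cells against 51.1, 78.2 and 53.2 in uninduced shRNA cells (1.82 ± 0.21, adjusted p = 3.57e-06). All 3 differ by more than 3-fold, and their groups do not overlap.

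LINC01003 was lower in the uninduced dnTcf4 line by 1.29 (adjusted p = 2.66e-07), on the values above. LINC01210 had 27.6, 12.7 and 41.7 in uninduced dnTcf4 cells against 56.8, 70.2 and 67.0 in uninduced shRNA cells (−1.40 ± 0.49, adjusted p = 0.0328), and was not called without dnTcf4 uninduced replicate 2 (−0.92, adjusted p = 0.169) or any of 4 other arrays. LINC01588 had 15.4, 26.4 and 22.1 in uninduced dnTcf4 cells against 43.1, 58.0 and 41.9 in uninduced shRNA cells (−1.18 ± 0.30, adjusted p = 0.00563). When probe sets that may match related sequences were left out, the gene was read from another probe set, with −0.73 (adjusted p = 0.133). LINC01224 and LINC00847 were lower by 1.09 and 1.08, and LINC01315, LINC00294, LINC00992 and LINC00957 by 0.97, 0.96, 0.82 and 0.71. LINC00957 was not called without shRNA uninduced replicate 1 or dnTcf4 uninduced replicate 2 (−0.59 to −0.50, adjusted p up to 0.0827). LINC01278, LINC00339, LINC01806 and LINC00467 were lower by 0.61, 0.54, 0.46 and 0.45, and the calls of these 4 were lost with arrays centred on their median. Higher in the dnTcf4 line were LINC00324 (0.99), LINC01694 (0.97), LINC00938 (0.83) and LINC00520 (0.59). LINC00520 was not called without dnTcf4 uninduced replicate 3 (0.34, adjusted p = 0.243) or any of 3 other arrays. LINC00324 was not called without shRNA uninduced replicate 3 (0.74, adjusted p = 0.0634) or dnTcf4 uninduced replicate 1 (0.80, adjusted p = 0.0744), nor LINC01694 without shRNA uninduced replicate 1 (0.74, adjusted p = 0.076). LINC01210 and LINC01588 reached a mean of 5 in the shRNA groups alone, LINC01694 in the dnTcf4 groups alone, and LINC00324 in every group but uninduced shRNA cells. These 4 differences are therefore not independent of the choice of genes.

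**Figure D4:**
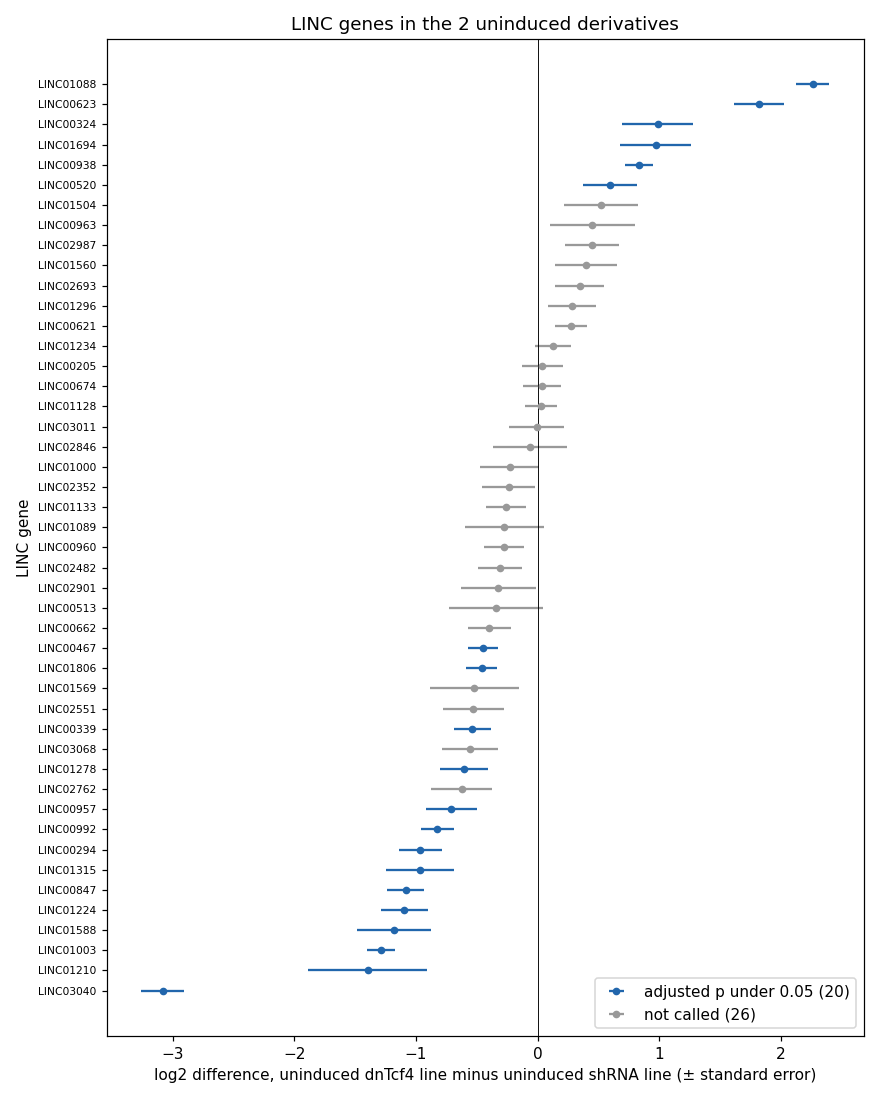
Log2 difference of each LINC gene, uninduced dnTcf4 line minus uninduced shRNA line, with bars for the standard error and blue for the 20 called. LINC03040 lies 3.08 lower and LINC01088 2.26 higher in the dnTcf4 line.

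In all, 31 of the 46 genes were called in at least 1 comparison, 5 in 3 or more and 15 in none. These are 67.4%, 10.9% and 32.6%, against 74.2%, 22.4% and 25.8% of genes with a mean of 5 or more. LINC00339 was called in all 4. The comparisons between uninduced lines share arrays with those of the inductions. Precision followed brightness: the median standard error of an induction change was 0.156 for the brighter 23 and 0.253 for the dimmer 23, of which 10 and 5 were called with the shRNA and 9 and 3 with dnTcf4. Among LINC genes tested with a mean under 5, 12 of 120 (10.0%) were called with the shRNA and 11 (9.17%) with dnTcf4. Of all genes tested, which include the brighter ones, 34.0% and 36.0% were called. No share of all genes at matched brightness was taken for these counts, so they describe LINC genes alone.

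Other probe sets of the same genes give a further reading that the choice of genes did not use. There were 53 of them for 26 genes, and 23 of 17 genes passed the filter. They were tested in a fit over all probe sets. For genes called with the shRNA, 4 of 8 others were called in the same direction, with dnTcf4 2 of 7, in the difference of changes 2 of 3 and between uninduced lines 2 of 7. None was called in the opposite direction, and the third in the difference, of LINC00662, had −0.11 (adjusted p = 0.942). Without a call, 1 with the shRNA and 2 with dnTcf4 had the opposite sign. That probe set of LINC00662 had 0.006 with dnTcf4, where the kept one fell by 0.64. In that fit some kept probe sets lost their call: LINC00467 with the shRNA, LINC00339 and LINC01296 with dnTcf4, and LINC00520, LINC01278 and LINC01210 between uninduced lines. So did 4 of the 6 differences of change, in LINC03040, LINC01133, LINC00662 and LINC02901 (adjusted p of 0.0605 to 0.122). LINC03040's other probe set, which may also match related sequences, changed by 1.32 with dnTcf4 and differed by −2.43 between uninduced lines. Its difference of changes was called (adjusted p = 0.00602), where the kept probe set had an adjusted p of 0.0639. LINC01128's other probe set changed by −0.97 with the shRNA (adjusted p = 0.0043). LINC02482's changed by 1.26 with the shRNA, close to the kept probe set. LINC00467's other probe set, which may also match related sequences, rose by 0.62 with the shRNA (adjusted p = 0.00804). The kept one of LINC00467 had 0.34 in that fit (adjusted p = 0.0932). The dim other probe sets of LINC00957 had estimates of 2.40 and 1.84 with dnTcf4 that did not pass (adjusted p = 0.0578 and 0.184), where the kept one had 0.17.

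**Figure D5:**
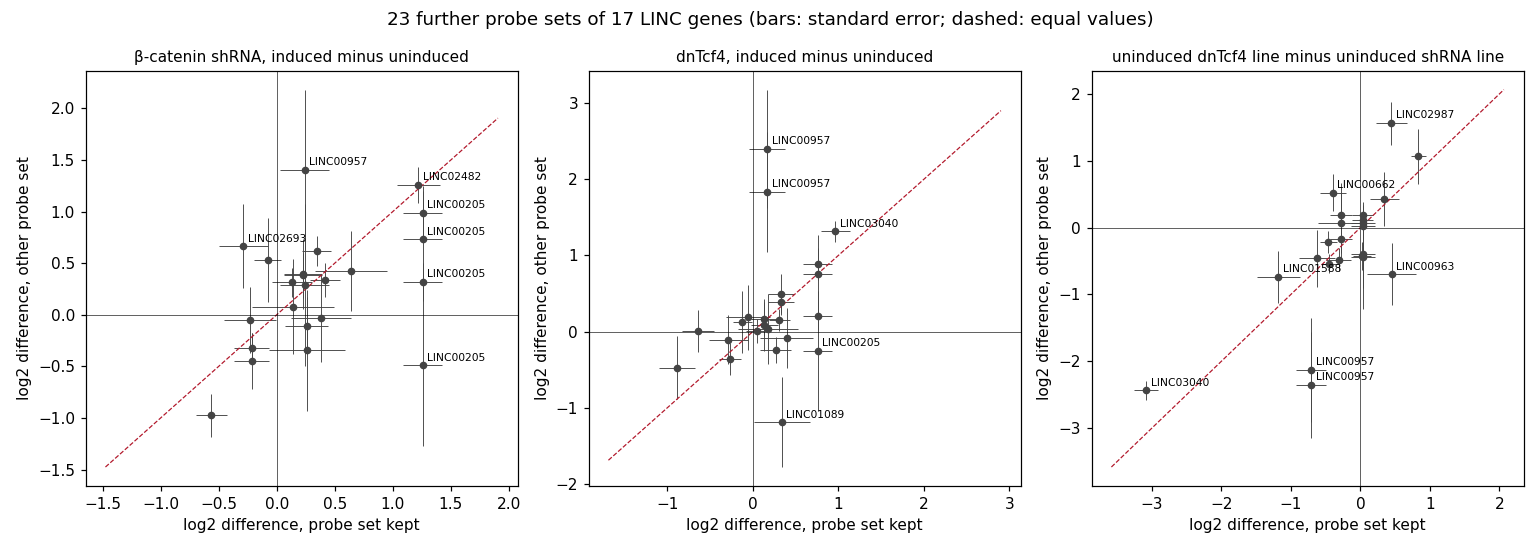
Log2 changes of the kept probe set (horizontal) and of other probe sets of the same gene that passed the filter (vertical), 1 point per pair with standard errors, in panels for the shRNA, dnTcf4 and the uninduced lines. LINC03040 lies near the diagonal, and LINC00205's other probe sets spread from −0.49 to 0.99 with the shRNA.

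Neighbours were read as the nearest tested gene on each side, 90 genes for the 45 placed LINC genes. Of these 23.3% were called with the shRNA and 37.8% with dnTcf4, against 34.0% and 36.0% of all genes tested. Among 30 pairs of a called LINC gene and a neighbour with the shRNA, both were called in 12, 8 in the same direction and 4 in opposite directions, and with dnTcf4 in 8 of 22, 3 and 5. LINC02901 rose beside EZR, which encodes the membrane linker ezrin (0.93, adjusted p = 1.93e-07), and LINC01504 rose beside the guanine deaminase gene GDA (1.26, adjusted p = 1.16e-06). EZR rose with dnTcf4 too (0.52, adjusted p = 9.63e-05), where LINC02901 changed by −0.00, and EZR was 1.07 higher in the uninduced dnTcf4 line, where LINC02901 had −0.32 (adjusted p = 0.453). LINC00324 rose while AURKB, a mitotic kinase gene, fell by 1.49 with the shRNA (adjusted p = 4.31e-07). CTC1, on the other side, had 0.06 (adjusted p = 0.82). In the uninduced dnTcf4 line AURKB was 0.68 higher (adjusted p = 0.00106), as LINC00324 was, by 0.99. LINC01224 fell while the zinc finger gene ZNF91 rose, by 1.57 with the shRNA (adjusted p = 9.3e-07) and 0.56 with dnTcf4 (adjusted p = 0.0093). ZNF675, on the other side, had −0.48 with the shRNA (adjusted p = 0.471) and 0.08 with dnTcf4 (adjusted p = 0.914). For LINC01133 neither neighbour was called in an induction (SLAMF9, which overlaps it, 0.22 and 0.92, PIGM −0.06 and 0.05). LINC00205's neighbour POFUT2 rose by 0.67 (adjusted p = 0.0489) with the shRNA and COL18A1, of collagen XVIII, fell by 0.54 and 0.70. CDC42, beside LINC00339, changed by 0.12 (adjusted p = 0.415) with the shRNA and by 0.47 (adjusted p = 0.00283) with dnTcf4. LINC01635, which overlaps LINC00339 on its other side, rose by 2.30 (adjusted p = 0.00149) with the shRNA. With dnTcf4 it had −0.04 (adjusted p = 0.969), a difference of changes of 2.34 (adjusted p = 0.0273). LINC01635 is dim, with a mean of 3.66. Its geometric mean signal was 39.8 in induced shRNA cells and 8.07 to 9.07 in the other groups, where the filter lay at 10.2. It thus passed the filter through the group in which it rose, and these changes are not independent of the filter. VEGFA, beside LINC03040, fell by 1.02 with the shRNA and rose by 0.37 with dnTcf4. MRPL14, on the other side of LINC03040, fell by 0.27 (adjusted p = 0.0187) and 0.46 (adjusted p = 0.000398). The neighbours named here are not all of those read.

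Other long noncoding RNAs were read the same way. Of 117 antisense RNAs with a mean of 5 or more, 37 rose and 10 fell with the shRNA (40.2% called). With dnTcf4 11 rose and 31 fell (35.9% called). Of all genes with a mean of 5 or more, 19.6% rose and 21.3% fell with the shRNA, and 18.9% and 24.5% with dnTcf4. Of all genes tested 16.6% and 17.4%, and 16.0% and 20.0%, did so. Of 40 named long noncoding RNAs 21 were tested, with 7 higher and 2 lower with the shRNA and 2 higher and 4 lower with dnTcf4. The shares called were 42.9% and 28.6%, against 34.0% and 36.0% of all genes tested. NORAD, which binds Pumilio proteins, rose by 0.61 and 0.41. DANCR rose by 0.32 with the shRNA and fell by 0.91 with dnTcf4, and ZFAS1 rose by 0.39 and fell by 0.31. UCA1 rose by 1.56 with dnTcf4 (adjusted p = 0.00576), and its change with the shRNA was −0.23 (adjusted p = 0.703). MALAT1 changed by 0.05 in each line, which passed the test in neither.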

How the data were processed

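RNA of 12 Ls174T samples was measured on Affymetrix U133 Plus 2.0 arrays. The table deposited by the authors gives intensity (MAS5 signal, linear, arbitrary units) per probe set and array. Per the submitters' processing notes MAS5 and GCOS were used, in versions that the sources do not state. The middle 96% of probe sets averaged 100.0 on each array, and 6.58% to 9.25% of values lay under 1. The table carries no detection calls, and all its columns were used.

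Of 54675 probe sets 41097 had 1 gene symbol, 1801 several and 11777 none in the array annotation, whose symbols were updated through RefSeq. Values under 1 were set to 1 before log2. The brightest probe set by mean log2 signal stood for each of 19775 genes. Genes with a mean of at least 3.35, the median over probe sets (signal 10.2), were tested: 12386, with 7389 left out.

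Limma 3.58.1 in R 4.3.3 fitted 4 group means to the 12 arrays (8 residual degrees of freedom) with moderated variances that follow a trend in level. Contrasts were induced minus uninduced for either line, the shRNA change minus the dnTcf4 change, and uninduced dnTcf4 minus uninduced shRNA. P-values are two-sided, with Benjamini-Hochberg adjustment over the 12386 genes, and calls were made under an adjusted p of 0.05. Other probe sets of the LINC genes were tested likewise, over all probe sets but the 62 controls. The fit was tested on simulated data. The LINC genes, the lists of other genes and the rule for naming genes were chosen with earlier results of these data known. The rule gave values on every array for the 8 largest changes in each induction, the 6 largest differences of change, the 6 largest differences between uninduced lines, the 5 brightest genes and those called in both inductions. For these genes the nearest tested gene on each side was read. LINC00847, LINC00992 and further genes given without array values were added after their values were seen. Alternatives were another normalization (quantile, median centring), an offset of 3.5 before log2, other filters, no variance trend, array weights, only the arrays compared, a replicate block, a minimum 2-fold change, other minimum levels, leaving out _x_at and _s_at probe sets, and each array left out in turn.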

Additional observations from a re-analysis of the deposited data

Results flagged for a closer look

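For 6 LINC genes the change on induction differed between the lines, by the test of the difference of changes (shRNA minus dnTcf4) in the limma fit. The differences on the log2 scale were 1.32 for LINC02901, 1.19 for LINC00339, 0.95 for LINC02482, 0.90 for LINC00662, −0.83 for LINC03040 and −0.76 for LINC01133. That of LINC02901 is not independent of the choice of genes, because induced shRNA cells alone brought this gene in. LINC00339 rose with the shRNA and fell with dnTcf4, LINC01133 rose in both and by more with dnTcf4, and the other 4 were called in 1 induction and not in the other. In the fit over all probe sets the difference at the kept probe set was not called for 4 of the 6, LINC03040, LINC01133, LINC00662 and LINC02901. Another probe set of LINC03040, which may also match related sequences, was called there in the same direction (adjusted p = 0.00602). That of LINC00662 above the filter was not called (adjusted p = 0.942). The groups of LINC00339 overlapped with dnTcf4, and the call of its fall was lost without any of 4 arrays. Construct and time differ together, so their parts cannot be told apart.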

How the results depend on the processing

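Of 53 called results on single LINC genes, 14 kept direction and call under every alternative and none reversed. Over 1205 comparisons with an alternative, 1060 kept the call and 145 lost it, and 21 results lost it without some array. A minimum 2-fold change moved the counts with the shRNA to 7 higher and 0 lower (13 and 2 without it), with dnTcf4 to 1 and 1 (5 and 7), in the difference of changes to 2 and 0 (4 and 2), between uninduced lines to 2 and 6 (6 and 14) and to 1 gene in both inductions (5). The number of LINC genes was 95 at a mean of 4 or more and 27 at 6 or more. At 4 or more, 8 were higher with dnTcf4 and 10 between uninduced lines. At 6 or more, 4 were lower with dnTcf4 and 2 higher in the difference. Without x_at and s_at probe sets 3 were higher with dnTcf4, and without the filter 2 were higher in the difference. Lower differences became 1 with median centring and 0 without the variance trend. With each array left out in turn, counts ranged from 8 to 15 higher with the shRNA, 4 to 8 lower with dnTcf4, 2 to 8 higher and 0 to 2 lower in the difference, and 3 to 5 called in both inductions. Leaving out dnTcf4 induced replicate 2 gave the 8 higher differences and dnTcf4 uninduced replicate 1 gave 2. The cause was not tested. Fits of only the arrays compared do not apply to the difference of changes.

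Arrays of a line that share a replicate number did not deviate together, with correlations of −0.0358, 0.0163 and −0.0779 in the shRNA line and −0.0194, 0.0378 and −0.0155 in the dnTcf4 line. With the replicate block 13 were higher and 2 lower with the shRNA, 5 and 6 with dnTcf4, 5 and 1 in the difference, and 6 and 14 between uninduced lines. The block between lines was chosen after seeing the data.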
